A study of Mus musculus with 2 samples.

Results

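Msl1 regions away from any transcription start site (TSS) were 1547 of the 2176690 eligible 1 kb regions of the mouse autosomes, 0.0711% of them. An eligible region is 1 kb of a fixed, non-overlapping grid whose bases all lie more than 3 kb from the TSS of every annotated transcript. Unsequenced stretches of the genome are counted among them, and 2098352 eligible regions hold at least 1 sequenced base. Members were chosen by their own read counts in both libraries: at least 25 Msl1 reads, an Msl1 count of at least 2.5 times the local level, and an Nsl1 count under 2 times the local level. The local level is the mean count per kb of the same library over the flanks, between 5 kb and 50 kb from the middle of the region. The ratio of the count in a region to this level is called the Msl1 or Nsl1 ratio below. The high Msl1 ratio and the low Nsl1 ratio of the members are therefore a description of the choice and not a result.

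The chromatin came from wild type male mouse embryonic stem cells (mESCs) of the line E14.wt, of 129P2/OlaHsd background, at passage 26 for both libraries, with no treatment. The cells had been grown on feeder cells and then moved off them. Anti-Msl1 antibody 3208 and anti-Nsl1 antibody 3130 were each used for 1 library of single-end reads, so no difference between the libraries has a replicate check and no p-value is given. Of 23888517 Msl1 reads and 26084098 Nsl1 reads, 19483142 and 24883001 were left with 1 read kept per position and strand. Intervals are exact 95% Poisson intervals of counts, exact 95% binomial intervals of shares or order-statistic intervals of medians. They cover counting error only.

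Msl1 is the scaffold subunit of the MSL complex and Nsl1 that of the NSL complex. Both complexes hold Mof, an acetyltransferase that acts on lysine 16 of histone H4, a mark of open and transcribed chromatin. In flies MSL is best known for raising the output of the male X chromosome, whereas NSL is known from the promoters of housekeeping genes in flies and mammals. A read of a ChIP-seq library marks 1 end of a precipitated fragment, so that a protein bound at a point gives reads of the forward strand on its left and of the reverse strand on its right. A ChIP signal does not tell binding in few of the cells from weak binding in all of them.

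Among the 12 strongest sites, 8 were narrow points of Msl1 reads and 7 of these hold 1 or more copies of the same short word, so their sequence is shown first. Adjacent members were joined, which gave 1414 sites, and the 200 bases with the most Msl1 reads in a site were taken as its summit. For 5 of the highest sites off the exons the sequence is printed below as the plus strand of mm9 over the 200 bases at the summit, because the same 7 letters recur in them. Capitals mark AAATGGC or, on the other strand, GCCATTT. The windows are chr19:54360071-54360270, named by its nearest gene Adra2a, chr8:87254001-87254200 in an intron of Nfix, chr11:23804021-23804220 near Papolg, chr8:130518831-130519030 near the gene model Gm17350, and chr7:80669391-80669590 in an intron of Chd2.
Adra2a: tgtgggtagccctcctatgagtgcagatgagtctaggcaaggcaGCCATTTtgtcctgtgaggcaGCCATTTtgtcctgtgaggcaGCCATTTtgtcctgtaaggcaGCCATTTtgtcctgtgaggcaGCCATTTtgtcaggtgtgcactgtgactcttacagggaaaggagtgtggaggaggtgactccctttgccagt
Nfix: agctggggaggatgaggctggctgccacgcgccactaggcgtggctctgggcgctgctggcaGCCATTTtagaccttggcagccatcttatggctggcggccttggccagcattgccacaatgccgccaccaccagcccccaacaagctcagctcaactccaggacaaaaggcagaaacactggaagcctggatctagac
Papolg: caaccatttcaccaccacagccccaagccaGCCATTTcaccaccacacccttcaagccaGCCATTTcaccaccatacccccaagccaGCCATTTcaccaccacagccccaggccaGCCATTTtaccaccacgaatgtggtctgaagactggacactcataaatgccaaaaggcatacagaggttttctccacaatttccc
Gm17350: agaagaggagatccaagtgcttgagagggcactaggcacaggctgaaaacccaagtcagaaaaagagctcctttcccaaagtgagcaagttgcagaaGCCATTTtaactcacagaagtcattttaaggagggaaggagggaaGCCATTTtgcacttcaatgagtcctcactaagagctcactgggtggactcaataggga
Chd2: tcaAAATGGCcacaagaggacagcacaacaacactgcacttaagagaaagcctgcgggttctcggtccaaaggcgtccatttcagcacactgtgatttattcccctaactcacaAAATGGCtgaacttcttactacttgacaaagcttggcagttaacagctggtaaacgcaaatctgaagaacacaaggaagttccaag

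These windows hold 5, 1, 4, 2 and 2 copies of the word. In the Adra2a and Papolg windows the copies stand in short tandem repeats, all on the minus strand.

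The highest ratio was at chr19:54360001-54361000, far from genes, with the TSS of Adra2a, the gene of an adrenergic receptor, 240829 bases away. It held 103 Msl1 reads at a local level of 6.98 per kb, a ratio of 14.8 (95% interval 12.05 to 17.9). The Nsl1 library had 16 reads at a local level of 10.5, a ratio of 1.53 (0.875 to 2.49). Of the 111 Msl1 reads within 500 bases of the summit 71 lay in its 200 bases, 63.96%, where the Nsl1 library had 5 reads.

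The largest count was in Nfix, which encodes a transcription factor of the nuclear factor I family. At chr8:87254001-87255000, in an intron, 172 Msl1 reads gave a ratio of 10.6 (9.04 to 12.3), with 83 reads on the forward and 89 on the reverse strand. The Nsl1 library had 34 reads there, a ratio of 1.93 (1.34 to 2.70), just under the limit of the rule. The summit held 70.3% of the Msl1 reads within 500 bases. The most upstream TSS of Nfix had an Msl1 ratio of 0.464, below its surroundings, and no value was taken at the other TSSs of the gene.

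At chr11:23804001-23805000, upstream of Papolg, which encodes a poly(A) polymerase, 139 Msl1 reads gave a ratio of 10.5 (8.85 to 12.4), and 13 Nsl1 reads gave 0.962 (0.512 to 1.65). In an intron of Chd2, the gene of a chromatin remodeller, chr7:80669001-80670000 had 154 Msl1 reads, a ratio of 8.12 (6.89 to 9.51), against 17 Nsl1 reads, a ratio of 1.34 (0.778 to 2.14). Both summits were narrow, with 70.5% and 68.0% of the surrounding reads in 200 bases.

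The 2 adjacent regions chr8:130518001-130520000 lie 351970 bases from the TSS of Gm17350. The higher of them had 61 Msl1 reads, a ratio of 8.18 (6.26 to 10.5), and 14 Nsl1 reads, a ratio of 1.19 (0.649 to 1.99). The summit held 75.6% of the reads, the highest share among the 12 highest sites.

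Other narrow sites of the 12 highest lay in Basp1, in Dtx4 and on chromosome 18. In Basp1, which encodes a protein of the neuronal membrane, chr15:25294001-25296000 had 96 Msl1 reads, a ratio of 8.17 (6.62 to 9.98), and 20 Nsl1 reads, a ratio of 1.71 (1.05 to 2.65). In Dtx4, a ubiquitin ligase of the Deltex family, chr19:12541001-12543000 had 63 Msl1 reads, a ratio of 7.54 (5.79 to 9.65), and 12 Nsl1 reads, a ratio of 1.12 (0.577 to 1.95). Both summits held 2 copies of the word, and both sites also touch an annotated exon. The site chr18:82899001-82900000, near the miRNA gene model AC113104.1, had 105 Msl1 reads, a ratio of 11.6 (9.46 to 14.0), and 23 Nsl1 reads, a ratio of 1.802 (1.14 to 2.70). It held no copy of the word, its reads were uneven between strands with 32 forward and 73 reverse, and 87.0% of its 36-base sequences occur once in the genome.

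The other 4 of the 12 highest sites were broad and rich in CpG. In an exon of Otud7a, the gene of a deubiquitinase, chr7:70903001-70904000 had 47 Msl1 reads, a ratio of 8.74 (6.42 to 11.6), and 13 Nsl1 reads, a ratio of 1.23 (0.652 to 2.10), with a GC content of 65.9%. Upstream of Csrnp1, which encodes a nuclear protein, the 3 regions chr9:119891001-119894000 had up to 104 Msl1 reads, a ratio of 7.62 (6.23 to 9.24), with 28 Nsl1 reads, a ratio of 1.74 (1.16 to 2.52). Near the miRNA gene Mir183, chr6:30123001-30124000 had 98 Msl1 reads, a ratio of 7.44 (6.04 to 9.07), and 25 Nsl1 reads, a ratio of 1.66 (1.08 to 2.46). At chr2:67404001-67405000, where the nearest TSS is that of Xirp2, a gene of an actin-binding muscle protein, 46 Msl1 reads gave 7.42 (5.43 to 9.90), and 14 Nsl1 reads gave 1.60 (0.875 to 2.69). The summits of these sites held 36.5% to 45.5% of the surrounding reads and no copy of the word. At all 12 sites the interval of the Msl1 ratio lay above that of the Nsl1 ratio, as the rule favours, and the Nsl1 interval lay wholly above 1 at 5 of them.

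**Figure D1:**
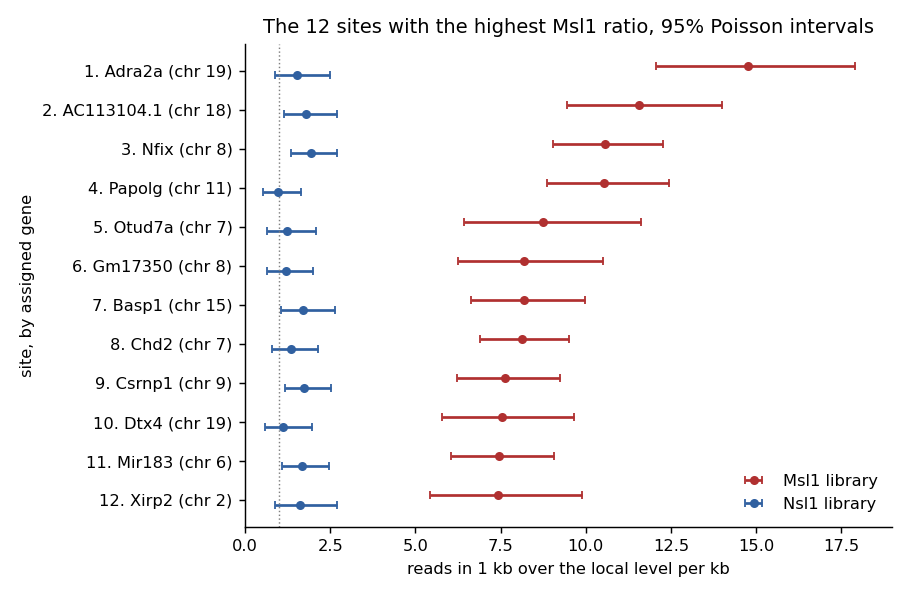
Reads in the 1 kb region over the local level per kb (x axis) for the 12 sites with the highest Msl1 ratio, named by the gene they were assigned to, in the Msl1 library (red) and the Nsl1 library (blue). Points are ratios and bars are exact 95% Poisson intervals. The Msl1 ratios run from 7.42 to 14.8 and the Nsl1 ratios from 0.962 to 1.93.

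Most members were far weaker than these. The Msl1 counts of the 1547 regions ran from 25 to 172 with a median of 30, and the Msl1 ratios from 2.5 to 14.8 with a median of 2.83. Under 3 times the local level lay 996 regions, and 137 reached 4 times. The Nsl1 counts ran from 3 to 54 with a median of 16, and the median Nsl1 ratio was 1.25, with 387 regions below their local level. The interval of the Msl1 ratio lay wholly above 2.5 in 213 regions, and the interval of the Nsl1 ratio reached 2 in 826, so that for many members counting error alone spans the thresholds. The forward strand carried 30% to 70% of the Msl1 reads in 1527 regions, with a median of 50%.

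Just inside the Msl1 threshold stood chr1:168070001-168071000 with 27 Msl1 reads and a ratio of 2.5, and just outside it chr10:5992001-5993000 with 41 reads and a ratio of 2.498. Just inside the Nsl1 threshold was chr12:118398001-118399000 with an Nsl1 ratio of 1.996, and just outside it chr9:78050001-78051000 with 2.002. With all other conditions met, 194 regions had 25 Msl1 reads and 235 had 24.

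The size of the set depended on the choices behind it. It ran from 440 regions with at least 35 Msl1 reads to 3688 with repeated reads kept, and 47.9% (45.4 to 50.4) of the members were overlapped by 500 bases by a region that passed on a grid moved by 500 bases. Whatever the Nsl1 reads, 2007 regions passed the Msl1 conditions, 0.0922% of those eligible. The mirrored rule, with Nsl1 and Msl1 exchanged, gave 2190 Nsl1 regions, 0.101%, and 460 regions were high in both libraries.

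Members lay nearer to genes than eligible regions did, but the read minimum of the rule favours places with a high local Msl1 level. The median local level was 10.4 reads per kb in members and 6.67 in all eligible regions. The share of members in transcripts was 70.2% with at least 35 Msl1 reads and 56.8% at 3 or more times the local level. The mirrored rule for Nsl1 regions has the same minimum of 25 reads, but the median local Nsl1 level of all eligible regions was higher, 9.5 reads per kb. At these median levels the minimum demands a higher ratio of Msl1 regions than of Nsl1 regions. The part of the read minimum in the comparisons below, with eligible regions and with Nsl1 regions, was not tested. The median distance from the middle of a member to the nearest TSS was 11190 bases (10346 to 11921), against 40847 over all eligible regions and 21812 (20650 to 22970) for the Nsl1 regions. Transcripts held the middle of 1003 members, 64.8% (62.4 to 67.2), against 37.1% of eligible regions and 38.2% (36.2 to 40.3) of Nsl1 regions. An exon was overlapped by 373 members, 24.1% (22.0 to 26.3), against 6.47% of eligible regions and 12.2% (10.9 to 13.7) of Nsl1 regions. Among members within transcripts 36.1% (33.1 to 39.2) touched an exon, against 16.7% of eligible regions within transcripts and 30.5% (27.4 to 33.7) of Nsl1 regions within transcripts. In this last share the intervals of the Msl1 and Nsl1 regions overlapped, and in the distance, the share in transcripts and the share on exons they did not. For the 460 regions high in both libraries the median distance was 13323 bases (12339 to 14802), with 48.3% (43.6 to 52.9) in transcripts, 23.5% (19.7 to 27.6) on exons and, of those in transcripts, 46.8% (40.1 to 53.6) on exons. Their share on exons overlapped that of the members in its interval, and the interval of their share on exons within transcripts lay above that of the members.

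The frequency of members fell with distance from the TSS and differed between its sides. From 3 kb to 5 kb, 373 regions were members, 0.289% of those eligible, and beyond 50 kb 228 were, 0.0234%. Of the members from 3 kb to 5 kb, 74.8% (70.1 to 79.1) lay downstream of the nearest TSS in the direction of transcription, against 51.8% of eligible regions at that distance. From 20 kb to 50 kb the share was 52.5% (46.5 to 58.5) against 52.6%, and beyond 50 kb it was 59.2% (52.5 to 65.7) against 50.5%. Over all distances 65.4% (62.9 to 67.7) of the members were downstream, against 51.5% of eligible regions and 51.0% (48.8 to 53.1) of Nsl1 regions. Beyond 50 kb the members had the highest median Msl1 ratio of the 5 distance bins, 3.01. Where the local level is low, the read minimum of the rule demands a higher ratio, so this ranking is partly set by the rule. The local level was not compared between the bins, and the part of the read minimum in the fall with distance was not tested. Of the members beyond 50 kb, 45.2% (38.6 to 51.9) lay in a transcript, against 22.4% of eligible regions.

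**Figure D2:**
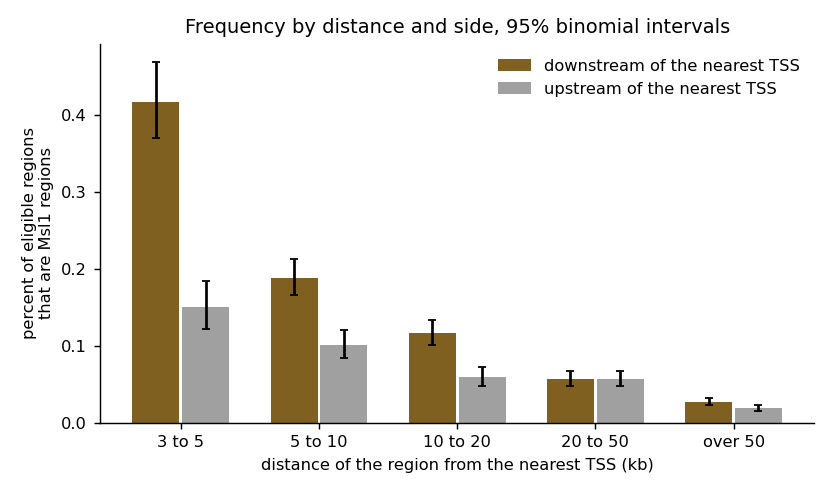
Percent of eligible regions that are Msl1 regions (y axis) by distance from the nearest TSS in kb (x axis), downstream (brown) and upstream (grey) of that TSS, with exact 95% binomial intervals. From 3 kb to 5 kb the values are 0.417% downstream and 0.151% upstream, and from 20 kb to 50 kb they are 0.0569% and 0.0572%.

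The regions between a near TSS and the members downstream of it also had raised Msl1 reads. The same steps were not taken for eligible regions that are not members, so whether this is particular to members was not tested. For the 279 members from 3 kb to 5 kb downstream, the median Msl1 ratio was 2.06, 2.16, 2.62 and 2.89 in the regions 1, 2, 3 and 4 kb closer to the TSS, and 1.81, 1.59, 1.46 and 1.36 in those 1, 2, 3 and 4 kb farther from it. For the 94 upstream members it was 1.69, 1.36, 1.48 and 1.70 on the side of the TSS. The Nsl1 ratio in the same steps toward the TSS was 1.12, 1.09, 1.19 and 1.49 for the downstream members, and rose mainly in the last step. Over all members the Msl1 ratio was still 1.57 at 1 kb and 1.17 at 4 kb to the right, where the Nsl1 ratio was 1.14 and 1.06. Of the members, 236 touched another member, 15.3% (13.5 to 17.1).

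Genes that hold a member had a higher Msl1 ratio on their most upstream TSS than genes that could hold one. For the 785 protein-coding genes with a member inside, the median Msl1 ratio within 500 bases of the TSS was 2.56 (2.43 to 2.68), against 2.07 (2.05 to 2.10) for the 14930 with an eligible region inside. The rule left the TSS out of the regions themselves, but the TSS of a gene can lie in the flanks that give the local level of its members, so the 2 values are not independent. The Nsl1 ratio there was 1.99 (1.91 to 2.10) against 1.88 (1.85 to 1.90), a smaller gap. Genes with a member were also longer, with a median of 55618 bases against 27556, and the part of length in this difference was not tested.

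Some genes held several members, in runs or scattered along the gene. Enc1, which encodes an actin-binding protein, had 6 members from 4441 to 10441 bases after its TSS, out of 8 eligible regions in the gene. Their Msl1 counts were 45, 40, 35, 49, 37 and 37, and their Nsl1 counts 13, 20, 15, 16, 14 and 13. The Msl1 ratios of Enc1 ran from 2.69 to 3.73, the Nsl1 ratios from 0.901 to 1.37, and the TSS had 3.98 for Msl1 and 1.12 for Nsl1. Fam113b had 7 members 129963 to 136963 bases from its TSS, near the far end of the gene, with 27 to 38 Msl1 reads and ratios of 2.59 to 3.64.

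Slc2a1, the gene of the glucose transporter Glut1, had 6 members among its 15 eligible regions, with 42 to 55 Msl1 reads and ratios of 2.63 to 3.26, against Nsl1 ratios of 0.851 to 1.52. Pkm2, the gene of the pyruvate kinase of proliferating cells, had 4, of which 3 adjoined each other with 94, 64 and 48 Msl1 reads and ratios of 6.65 (5.37 to 8.13), 4.55 (3.50 to 5.81) and 3.31 (2.44 to 4.38). The Nsl1 counts of these 3 were 18, 9 and 10. Members in Pkm2 thus fell in step with distance from the TSS, which itself had an Msl1 ratio of 3.59.

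Zfp42, which encodes the pluripotency marker Rex1, had 4 members among its 9 eligible regions. Moving away from the TSS, at 4862, 6862, 8862 and 9862 bases, they had 29, 46, 31 and 32 Msl1 reads and ratios of 3.97, 5.96, 4.07 and 4.11, and the Nsl1 counts were 10, 12, 13 and 18. The TSS of Zfp42 had an Msl1 ratio of 2.27, and members lie above that by the rule. Klf5, a transcription factor of the naive state, also had 4, with 52, 41, 41 and 37 Msl1 reads, ratios of 4.41, 3.49, 3.34 and 2.68, and a ratio of 5.91 at the TSS.

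Of the 9 genes with 4 members, the 7 with the highest Msl1 ratio were named, so the choice runs through a tie and leaves out 2. Gtse1, a gene of a microtubule-binding protein of the cell cycle, had ratios of 2.52 to 3.54 at 4125, 5125, 9125 and 11125 bases from its TSS. Msh6, a gene of mismatch repair, had ratios of 2.59 to 3.30 at 4111, 5111, 12111 and 14111 bases. Elfn1, known from synapses, had 4 adjoining members with ratios of 2.54 to 3.04. Accn1, the gene of an acid-sensing ion channel, had ratios of 2.51 to 3.17 among 1035 eligible regions, at 264322, 449458, 450458 and 687458 bases from a TSS of the gene. In all, 812 genes held a member, of which 677 held only 1.

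Of a list of 57 autosomal genes of core and naive pluripotency, 12 were assigned a site, 16 sites in all. Within their transcripts 17 of 1060 eligible regions were members, 1.60%, against 0.124% over all transcripts. The list was drawn up with earlier results of these data known, members were more frequent near TSSs over all genes, and the part of distance in this share was not tested. Besides Zfp42 and Klf5, members lay in Tdgf1, the gene of the Nodal coreceptor Cripto, with 39 and 42 Msl1 reads and ratios of 3.52 and 3.90, and in Nr5a2, the gene of a nuclear receptor, with 32 and 45 reads and ratios of 2.61 and 3.86. These latter 2 were chosen after their values were seen.

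Among 37 autosomal cytoskeletal, chaperone and metabolic housekeeping genes, 14 of 294 eligible regions inside were members, 4.76% against 0.124% over all transcripts, most of them in Pkm2 and Slc2a1. The list was drawn up in the same way as the former, and the part of distance in its share was not tested either. Slc2a3, another glucose transporter gene, had a site of 52 Msl1 reads, a ratio of 3.09 (2.31 to 4.05). For 43 regulators of neural and mesendoderm development 2 of 979 eligible regions inside were members, 0.204%, which with 2 members could not be told from the 0.124% of all transcripts, and 6 of the 8 sites assigned to them lay outside the genes. The highest was a run of 3 regions upstream of Pax3, chr1:78212001-78215000, with up to 29 Msl1 reads, a ratio of 3.43 (2.29 to 4.92) and a GC content of 71.9%. Another lay in Pax3 with 28 reads and a ratio of 2.96, 1 upstream of Tbx5, a T-box factor, had 28 reads and 3.10, and 1 after Meis2, a homeobox factor, had 26 reads and 2.91.

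The other lists gave few sites. Of a list of histone modifying enzymes, which also holds the DNA methyltransferase gene Dnmt3a, 3 of 2339 eligible regions inside were members, 0.128%. The sites were upstream of the acetyltransferase gene Myst4 with 52 Msl1 reads and a ratio of 2.93, and in the demethylase gene Kdm5b, the methyltransferase gene Setdb1 and the DNA methyltransferase gene Dnmt3a with 35, 29 and 29 reads and ratios of 2.64, 2.63 and 2.52. For the long noncoding and imprinted RNAs it was 1 of 810 regions, in Gnas with 50 reads and a ratio of 3.22 (2.39 to 4.25). For the translation genes it was 0 of 45, with 1 site upstream of Eef1a1 of 35 reads and a ratio of 2.73. With so few members, these shares could not be told from that of all transcripts.

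In subunits of Mof complexes 1 of 262 eligible regions was a member, 0.382%, which with 1 member could not be told from the 0.124% over all transcripts. This member lay in 2310037I24Rik, named Kansl2 in a later RefSeq table, with 36 Msl1 reads and a ratio of 2.53. The gene Msl1 has no eligible region, and its TSS had 175 Msl1 reads, a ratio of 8.36, and 18 Nsl1 reads, a ratio of 0.800. The gene of Nsl1, here 1700081L11Rik, had 0 members among 116 eligible regions and 2.02 for Msl1 and 1.62 for Nsl1 on its TSS. Myst1, the gene of Mof, had 0 among 9, with 1.08 and 3.28.

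GC content was above that of eligible regions in members and in the regions chosen on Nsl1 or on both libraries. The median was 48.7% (48.3 to 49.1) in members, 47.9% (47.6 to 48.1) in Nsl1 regions, 49.4% (48.5 to 50.7) in regions high in both and 41.4% over eligible regions. Between 35% and 40% GC, 0.0141% of eligible regions were members, between 50% and 55% it was 0.288%, and between 65% and 70% it was 55 of 377, 14.6%. Nsl1 regions reached 1.13% between 60% and 65%, where 4.04% were members, and there were 0 from 65% to 70%. Over all eligible regions of 65% to 70% GC the Msl1 ratio was 1.55 and the Nsl1 ratio 0.870, and of 35% to 40% GC they were 0.934 and 0.917. In the 61 regions of 70% to 75% GC they were 3.02 and 2.27, and in the 12 of 75% to 80% GC 2.32 and 1.00, with 15 and 3 members. The libraries were made with different kits and read lengths, and the part of the kit in this difference cannot be told apart from that of the antibody.

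**Figure D3:**
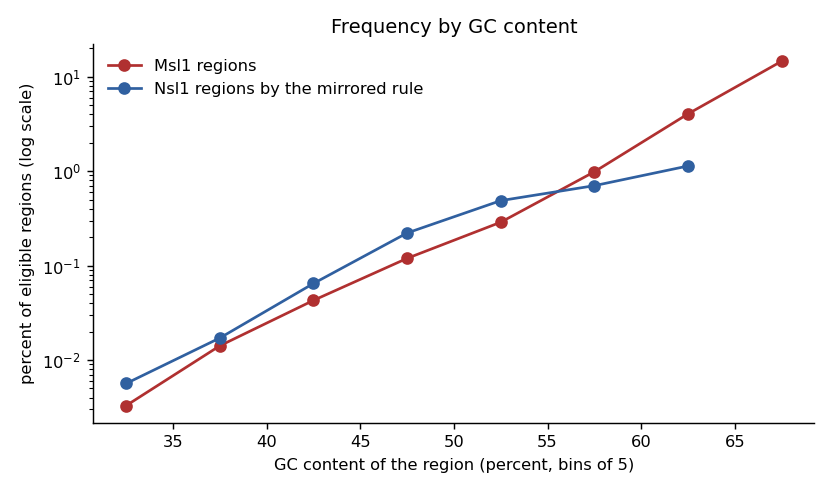
Percent of eligible regions (y axis, log scale) that are Msl1 regions (red) or Nsl1 regions by the mirrored rule (blue), by GC content in bins of 5 percentage points (x axis). Msl1 regions rise from 0.00329% between 30% and 35% GC to 14.6% between 65% and 70%, and no blue point is drawn in the last bin, where there are 0 Nsl1 regions. The 2 bins above 70% GC, with 61 and 12 eligible regions, are not drawn.

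CpG-rich members, with over 50% GC and a CpG frequency over 0.6 of that expected from the base content, were 198, 12.8% (11.2 to 14.6). Of eligible regions 0.110% and of Nsl1 regions 1.74% (1.23 to 2.37) were of this kind, and of regions high in both libraries 22.2% (18.5 to 26.3). Apart from narrow sites, 179 sites held a CpG-rich member. Their median Msl1 ratio was 3.16, with a median GC content of 62.1%, and 45.8% lay in a transcript. Besides those named above, the highest lay in Npas3, in Kbtbd11 and, with Irx5 as the nearest TSS, 102806 bases from it, with 38, 48 and 36 Msl1 reads and ratios of 6.03, 6.03 and 6.01. These 3 were chosen after their values were seen. Irx5 is a homeobox gene and Npas3 a transcription factor gene of the nervous system.

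Narrow sites, in which at least 50% of the Msl1 reads within 500 bases fell in the 200 bases at the summit and these held at least 20 reads, were 47 of the 1414. They held 20 to 128 Msl1 reads at the summit with a median of 25, against a median of 5 and at most 12 Nsl1 reads in the same 200 bases. Nsl1 reads were not absent there. In the bins of 200 bases left and right of the summit the Nsl1 level was 1.66 and 1.57 times the local level. In the next bins outward it was 1.12 and 1.14. The median Msl1 ratio of the narrow sites was 4.10, their median GC content 47.6%, and 23 lay in a transcript. Exons were touched by 4.26% of them, whether in a transcript or not, and by 24.5% of all sites. The narrow sites were defined by the reads, after the sharp sites had been seen. The gap between the Msl1 and Nsl1 counts at their summits is therefore partly set by the choice.

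**Figure D4:**
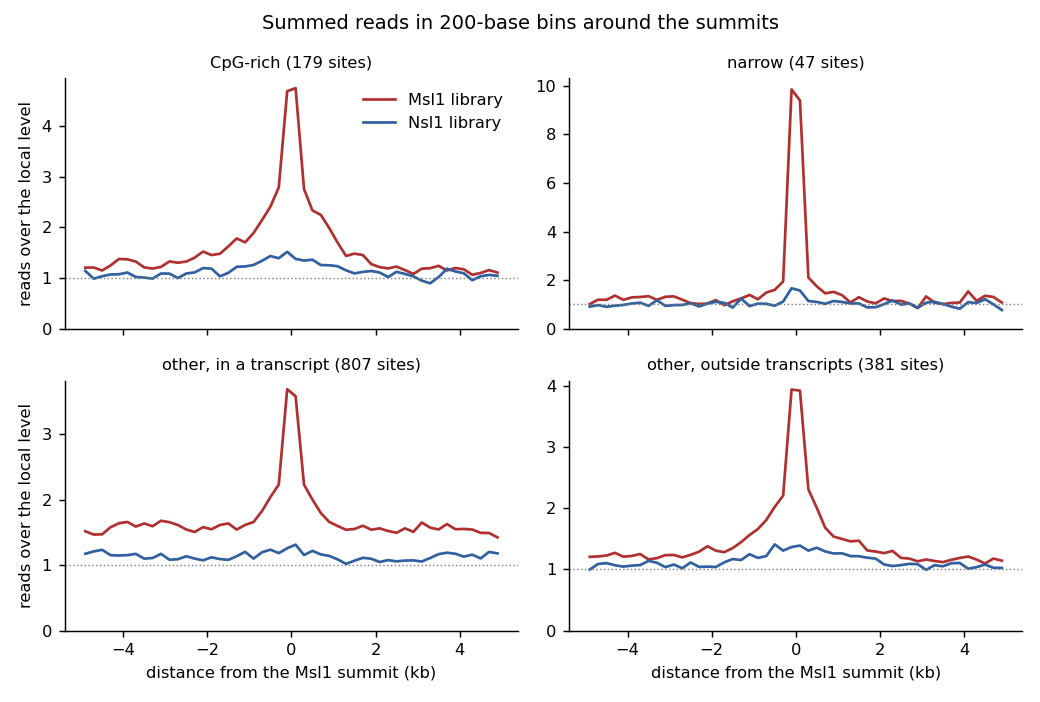
Summed reads over the local level (y axis) in bins of 200 bases within 5 kb of the Msl1 summit (x axis, kb) for 4 groups of sites, Msl1 in red and Nsl1 in blue. Summits were set at the highest Msl1 count, so the central peak is partly given by that choice. In the bins left and right of the summit the Nsl1 level of the narrow sites is 1.66 and 1.57. Narrow sites fall from over 9 times the local level at the summit to about 2 times at 200 to 400 bases from it, CpG-rich sites fall over about 2 kb, and the 807 other sites in a transcript fall from 3.69 at the summit and lie between 1.43 and 1.68 from 1 kb outward.

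The word AAATGGC stood at the summit of 26 of the 47 narrow sites, 55.3% (40.1 to 69.8), and 13 of them held 2 or more copies. With repeated reads kept, there were 112 narrow sites and 36.6% held it, and with Nsl1 under 1.5 times its local level there were 27 narrow sites. In windows of the same size 1.5 kb and 2.5 kb to both sides, it stood in 5 of 188, 2.66%. Within 100 bases of the 47 summits lay 44 copies, 19 on the plus and 25 on the minus strand, and only 26 lay from 1000 to 2500 bases away on both sides together. The word was found by counting short words at the summits of the sharpest members, so these shares describe the choice and are not a test of it. It contains ATGG, the core of the motif known for Yy1 and its relative Rex1, which is background and not a measurement here.

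Outside the narrow sites the word was less frequent at summits. It stood there in 3.35% (1.24 to 7.15) of the CpG-rich sites, 5.20% (3.78 to 6.97) of the other sites in a transcript and 5.25% (3.24 to 7.99) of those outside. In the windows to the sides of these 3 groups it stood in 4.47%, 3.38% and 2.69%. Anywhere in the 1 kb it was in 18.7% (16.8 to 20.7) of members, 15.98% (14.5 to 17.6) of Nsl1 regions and 15.96% of eligible regions. Among regions of 45% to 50% GC it was in 21.4% of members and 14.99% of eligible regions, and among those of 60% to 65% GC in 10.98% and 5.46%.

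**Figure D5:**
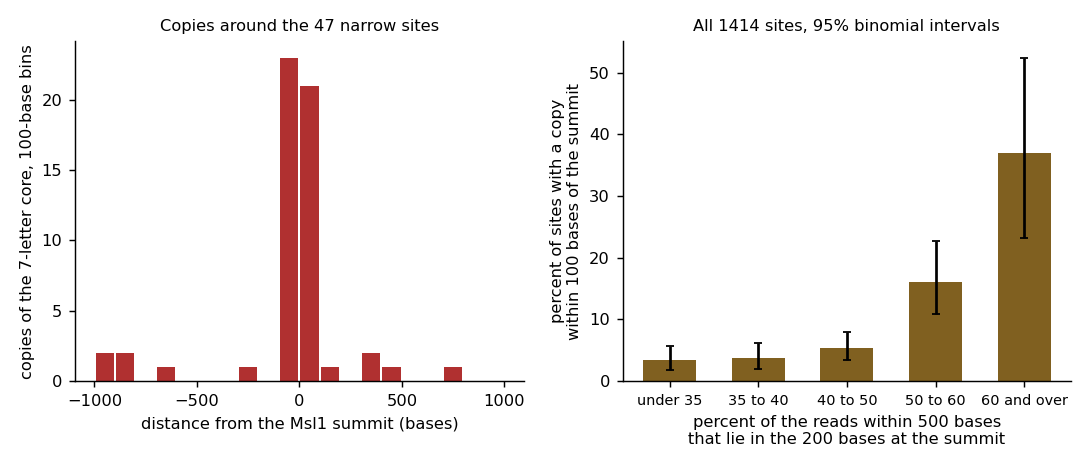
Left, copies of the 7-letter word (y axis, 100-base bins) by distance in bases from the summit of the 47 narrow sites (x axis). Right, percent of all 1414 sites with a copy within 100 bases of the summit (y axis) by the percent of the reads within 500 bases that lie in the 200 bases at the summit (x axis), with exact 95% binomial intervals. The share is 3.40% for sites under 35% and 37.0% for those at 60% and over.

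The level of both libraries was also taken over eligible regions grouped by their number of copies. The Msl1 ratio was 0.959 (0.958 to 0.959) in the 1750442 regions with 0 copies, 0.968 (0.967 to 0.969) with 1, 1.028 (1.024 to 1.033) with 2, 1.05 (1.03 to 1.06) with 3 and 1.43 (1.36 to 1.51) in the 133 regions with 4 or 5 copies. The Nsl1 ratio was 0.978, 0.977, 1.03, 1.03 and 1.06 (1.01 to 1.12) in the same regions. In the 7 regions with 6 or more copies the Msl1 ratio was 0.801 (0.613 to 1.03). Of the 133, 4 were members, at some of which the word was first seen. Without the members the Msl1 ratio was 1.022 (1.018 to 1.026) with 2 copies, 1.04 (1.024 to 1.06) with 3 and 1.17 (1.10 to 1.24) in the remaining 129 regions with 4 or 5, and the Nsl1 ratio was 1.03, 1.03 and 1.05 (0.995 to 1.11). The rule chose members by a high Msl1 and a low Nsl1 ratio, so leaving them out lowers the Msl1 ratio by construction, and neither value is independent of that choice.

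In addition, 14 other words were searched, and of these some that are rich in GC were more frequent in members than in eligible regions. GGGCGG, the GC box of Sp1, was in 32.6% (30.2 to 34.98) of members, 26.4% (24.6 to 28.3) of Nsl1 regions, 35% (30.6 to 39.6) of regions high in both and 7.27% of eligible regions, and among regions of 45% to 50% GC in 21.15% of members and 13.5% of eligible regions and among those of 60% to 65% GC in 84.1% and 58.1%. CCACCC, bound by Klf factors, was in 64.1% (61.6 to 66.5) of members, 56.4% (54.3 to 58.5) of Nsl1 regions, 56.3% (51.6 to 60.9) of regions high in both and 39.5% of eligible regions. Among regions of 45% to 50% GC it was in 61.0% of members and 58.5% of eligible regions, and among those of 60% to 65% GC in 84.1% and 62.6%. TCAAGGTCA, bound by Esrrb, was in 3.81% (2.92 to 4.89) of members, 3.01% (2.34 to 3.82) of Nsl1 regions, 3.70% (2.17 to 5.85) of regions high in both and 2.03% of eligible regions. At 45% to 50% GC it was in 4.52% of members and 2.81% of eligible regions, with 0 of the 82 members at 60% to 65% GC against 0.541% of eligible regions. CACGTG, the E-box, was in 14.1% (12.4 to 15.9) of members, 21.3% (19.6 to 23.1) of Nsl1 regions and 8.97% of eligible regions, but at 45% to 50% GC in 14.4% of members and 13.1% of eligible regions and at 60% to 65% GC in 23.2% and 17.5%. TGACGTCA, the cyclic AMP element, was in 0.905% (0.496 to 1.51) of members, 2.10% (1.54 to 2.79) of Nsl1 regions and 0.515% of eligible regions. At 45% to 50% GC the cyclic AMP element was in 0.821% of members and 1.0175% of eligible regions, and at 60% to 65% GC in 0 members and 0.689% of eligible regions.

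AGGGGGCG, part of the Ctcf motif, was in 4.72% (3.72 to 5.90) of members, 3.38% (2.66 to 4.22) of Nsl1 regions, 7.83% (5.54 to 10.7) of regions high in both and 0.672% of eligible regions, and among regions of 45% to 50% GC in 1.64% and 1.28% and among those of 60% to 65% GC in 17.1% and 7.43%. GAGAGAGA, known from the fly MSL complex's binding sites, was in 14.4% (12.6 to 16.2) of members and 15.1% of eligible regions, at 45% to 50% GC in 14.99% and 20.5%, and at 60% to 65% GC in 12.2% and 7.68%. For CACACACA the shares were 23.1% (21.1 to 25.3) and 24.3% over all GC contents, 25.1% and 28.999% in the lower of these GC bins and 17.1% and 9.30% in the higher. The octamer ATGCAAAT was in 7.05% (5.82 to 8.44) of members and 8.4% of eligible regions, but within the lower bin in 6.16% and 4.98% and within the higher in 7.32% and 1.18%. TGACTCA was in 16.4% (14.5 to 18.3) of members, 18.4% (16.8 to 20.1) of Nsl1 regions, 13.3% (10.3 to 16.7) of regions high in both and 14.3% of eligible regions. Of members and eligible regions it was in 20.9% and 16.9% within the lower bin and in 6.10% and 7.43% within the higher. TTCCNNGAA was in 14.2% (12.5 to 16.1) and 13.8%, within the lower bin in 15.2% and 14.4% and within the higher in 12.2% and 8.12%. The next 3 words were less frequent in members over all GC contents and not within the bins. AACAATG was in 13.2% of members and 18.4% of eligible regions, within the lower bin in 14.2% and 13.8% and within the higher in 6.10% and 3.002%. For ATCAAAG the shares were 14.9% and 18.9%, then 16.2% and 14.7% in the lower bin and 8.54% and 3.20% in the higher. The Gata word AGATAA was in 36.8% and 49.4%, within the lower bin in 41.9% and 39.7% and within the higher in 15.9% and 11.8%. The lower bin holds 487 members and the higher 82, and differences within them were not tested. Both strands were searched, and a match is a description of the sequence and not of a bound factor.

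Members were mostly unique sequence, which is partly set by the rule, since only uniquely aligned reads were counted. Unsequenced eligible regions count as not unique here. Under 90% of the 36-base sequences were unique in 5.69% (4.59 to 6.96) of members, 9.63% (8.43 to 10.9) of Nsl1 regions and 29.3% (25.2 to 33.7) of the regions high in both libraries, against 32.4% (31.0 to 33.8) of a systematic sample of 4354 eligible regions. Repeated reads made up 17.5% of the Msl1 reads in members and 17.0% in Nsl1 regions. Every autosome held members, from 0.0371% of eligible regions on chromosome 3 to 0.110% on chromosome 11.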

How the data were processed

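Msl1 and Nsl1 ChIP-seq libraries of mESCs were used, 1 per antibody. Per the submitters' notes and methods, the authors used CASAVA 1.8.2, aligned to mm9 with Bowtie 0.12.7 and kept unique reads. The authors deposited 1 line per read with position, strand and a score, which is the same on every line and was not used. Msl1 reads (NEXTFlex kit) have 50 bases and Nsl1 reads (NEBNext kit) have 36.

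From these positions, counts were made in Python 3.11.15 (pandas 2.3.3, numpy 2.4.6, numba 0.67.0, scipy 1.17.1) and plots in matplotlib 3.10.9. Of the reads, 1 per position and strand was kept, and 5' ends were moved 105 bases (Msl1) or 67 bases (Nsl1) downstream, from strand cross-correlation maxima at 210 and 135 bases on chromosomes 16, 18 and 19. The depth was 19483142 and 24883001 distinct reads. Transcripts, exons and TSSs came from GENCODE for mm9, whose release differs from the study's. No Input library was used. A site was assigned to the protein-coding gene that holds its middle, otherwise any gene that does, otherwise the gene of the nearest TSS. Each gene's most upstream TSS was used for TSS values. Uniqueness was computed from the genome over all start positions of a region. With 1 library per antibody no test was made.

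Sites named are the 12 highest, the up to 10 genes with most members, up to 4 sites per gene list, the threshold neighbours, and the genes of Msl1, Nsl1 and Mof. The members, lists and words were chosen with earlier results of these data known. The counting was tested on simulated data with planted regions. In all, 11 alternatives were tried: other reads, grid, shift, local level, sides, distance, minimum, thresholds and uniqueness, and, chosen after seeing the data, leaving out CpG-rich regions. The regions of the X chromosome are outside the rule.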

Additional observations from a re-analysis of the deposited data

Results flagged for a closer look

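On the X chromosome, which the rule leaves out, 10 regions passed the same conditions, 0.00681% of 146913 eligible regions there. They were singled out because they are a signal in data the comparisons do not use, above the limit that a count of 0 allows. The same minimum of 25 reads was used although male cells carry a single X chromosome, and where the local level is low it demands a higher ratio. The share and the ratios on the X chromosome are therefore partly set by the rule, and they were not compared with those of the autosomes. The highest lay in Tsix, the antisense gene of Xist, which controls X inactivation. There the run chrX:100644001-100647000 had up to 181 Msl1 reads in 1 kb, a ratio of 16.9, and 5 Nsl1 reads, a ratio of 0.526. The next was in Zfp185 at chrX:70253001-70254000 with 64 Msl1 reads, a ratio of 9.97, and 13 Nsl1 reads, a ratio of 1.97. The median Msl1 ratio of the 10 was 4.34 and the median Nsl1 ratio 1.23.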

How the results depend on the processing

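Under 11 alternatives, 10 values were computed again: the numbers of members and of narrow sites, the shares in transcripts, on exons, downstream, next to another member and of narrow sites with the word, the medians of distance and GC content, and the median Msl1 ratio on the TSS of the gene. Of the 110 values 69 stayed within the interval of the reported value (counts: within 1.5 times) and 41 did not. The causes of the moves were not tested beyond the construction of each setting. With all reads kept there were 3688 regions, 57.6% in transcripts, 19.2% on exons, a median of 17806 bases to the nearest TSS, 62.0% downstream, a median GC content of 46.2%, 10.4% next to another member, 112 narrow sites, and 36.6% of these with the word at the summit. With the local level from 5 to 20 kb, 57.1% lay in transcripts, the median distance was 15170 bases, 59.96% were downstream, the median GC content was 49.4% and the median Msl1 ratio on the TSS of the gene 2.36. With the threshold required on each side alone there were 942 regions, 61.5% in transcripts, 21.55% on exons, at a median of 12922 bases, 61.9% downstream. Over 5 kb from a TSS, the values were 59.4% in transcripts, 20.5% on exons, 16930 bases, 62.4% downstream and 12.8% next to another member. With at least 35 Msl1 reads there were 440 regions, 70.2% in transcripts, 29.5% on exons, at 8528 bases, with a median GC content of 51.75% and a TSS ratio of 2.33. At 3 or more times the local level there were 551 regions, 56.8% in transcripts, at 12011 bases, 61.5% downstream. With Nsl1 under 1.5 times, 68.4% lay in transcripts, the median GC content was 48.1%, 11.5% adjoined another member and 27 sites were narrow. Without CpG-rich regions, a setting chosen after seeing the data, 67.8% lay in transcripts, the median GC content was 47.8% and 12.5% adjoined another member.

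No paired analysis was possible because each antibody has 1 library and no value comes from a test. By the rule a member has at least 25 Msl1 reads, and 724 of the 1547 had 25 to 29. At 29 reads, as upstream of Pax3, the ratio of 3.43 had a counting interval of 2.29 to 4.92.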

Other observations

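The word AAATGGC was also looked up in regions outside the members at whose summits it was counted. The X chromosome sites passed the same rule and definition of narrow. The words were chosen with earlier results of these data known, so these values are a description and not a test. Of the 8 sites that the 10 X chromosome regions form, 2 were narrow, in Zfp185 and near the gene model Gm9166, with 93.7% and 78.6% of the surrounding Msl1 reads in the 200 bases at the summit. Each summit held 2 copies of the word, and the other 6 sites held 0. Over eligible X chromosome regions the Msl1 ratio was 0.966 (95% Poisson interval 0.963 to 0.969) with 0 copies, 0.961 (0.954 to 0.968) with 1, 1.07 (1.05 to 1.10) with 2 and 1.20 (1.10 to 1.30) in the 152 regions with 3, and the Nsl1 ratio was 0.982, 0.961, 1.03 and 1.06 (0.974 to 1.15). In the 12 with 4 or 5 copies the Msl1 ratio was 0.937 (0.649 to 1.31), on 34 reads. Regions that passed the rule were kept in these values, 2 of them among the regions with 2 copies and 0 among those with 3.

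Autosomal regions within 3 kb of a TSS had an Msl1 ratio of 1.21 with 0 copies, 1.20 (1.19 to 1.20) with 1, 1.23 (1.22 to 1.24) with 2, 1.39 (1.34 to 1.44) in the 242 with 3 copies and 1.98 (1.74 to 2.23) in the 12 with 4 or 5. The Nsl1 ratio in the same regions was 1.14, 1.11, 1.13, 1.13 (1.09 to 1.17) and 1.14 (0.977 to 1.33). Intervals cover counting error only, and reads of 1 region are not independent of each other.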
